A study of Homo sapiens with 6 samples.

Results

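Mitochondrial ribosomal protein genes were taken as all gene symbols that begin with MRPL or MRPS and a number, which gave 74 of the 18417 genes tested on the array. MRPL marks 48 genes of the large subunit and MRPS 26 of the small subunit. Of the 74, 73 encode proteins and the remaining member, MRPS31P5, is a pseudogene. The RNA came from A375, an established human melanoma line that carries BRAFV600E, an activating mutation of the kinase BRAF. Cells of 3 vehicle dishes (0.1% DMSO) and of 3 dishes given 10 µM vemurafenib, an inhibitor of mutant BRAF, were harvested after 24 h, each dish giving 1 single-colour Affymetrix array. Per the series' design text, the 3 replicates of a group were separate cell stocks grown on different days, and each vehicle dish had a vemurafenib partner from its stock and day. The letter that marks a pair is given for 1 array, so which arrays are partners is not settled by the labels and the comparisons here are unpaired. All 6 arrays are of the same line, so the results describe 1 line at 1 dose and 1 time.

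The mitochondrial ribosome translates the messages of the mitochondrial genome, which encode core subunits of the respiratory chain and of ATP synthase. Its RNAs are made inside the organelle, whereas every one of its proteins is encoded in the nucleus, translated in the cytosol and imported. Many of these proteins descend from bacterial ribosomal proteins, and others are found only in mitochondrial ribosomes. The comparison asked which of these genes differed in RNA level between drug and vehicle, and whether the large and small subunit genes differed alike.

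With vemurafenib, 32 of the 74 genes were lower and 5 higher at an adjusted p under 0.05 in limma (43.2% and 6.76%), and 37 did not pass. Over all genes tested, 22.2% were lower and 23.2% higher by the same rule. When each array was centred on the median of its probe sets, 32 members were lower and 4 higher. All genes then split into 22.5% lower and 22.7% higher. Centring on the median of the genes tested was chosen after seeing the data and lowered every gene's change by the same amount. More falls and fewer rises are built into that step. Under it the members split into 46 lower and 2 higher, and all genes into 30.6% lower and 20.0% higher. With that centring the median change over all genes was -0.11. On the deposited values, the median change of the members was -0.18 (log2, vemurafenib minus vehicle), against -0.05 over all genes. The quartiles of the members were -0.41 and -0.06. The changes were small: 4 members, MRPL17, MRPL18, MRPL3 and MRPL39, passed 1.5-fold, all of them lower, while 15.7% of all genes did so in either direction. The 3 vemurafenib arrays lay wholly below the 3 vehicle arrays for 44 members and wholly above them for 9, where over all genes these shares were 28.5% and 26.9%. In these cultures, fewer cells that express a gene and less RNA per cell cannot be told apart.

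Facts of the whole series were these. Array medians ran from 7.69 to 7.73 on the log2 scale, and precision is limited by the small number of arrays. Every member had a mean level from 7.71 to 12.82, above 6.87, the upper bound of the dimmest 25% of genes. DUSP6, a phosphatase induced by ERK signalling, served as a check of the drug and went from 11.21 ± 0.04 to 7.0 ± 0.03 (SD, n = 3), and SPRY2 (-3.8), CCND1 (-2.49) and MYC (-1.35) fell too. MITF, SOX10 and S100B, of 7 measured pigment cell markers, had group means of 10.17 to 11.78 and rose with vemurafenib (by 0.75, 0.30 and 0.91), whereas the group means of PMEL, TYR, TYRP1 and MLANA lay below 6.87. The group means of the 3 measured leukocyte markers lay below 6.87 too, and those of 3 of 5 keratinocyte markers (KRT14, KRT10 and KRT5) did not.

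The promoters of 66 members were found by symbol in a RefSeq table on GRCh38.p14 that holds 250 bases before and 50 after each start, and 8 members had no entry. They were searched on both strands for 6 motifs: the ETS motif CCGGAAG, the YY1 and NRF1 motifs, whose letters are the capitals in the MRPL46 and MRPL17 stretches printed next, the E-box CACGTG bound by MYC and its partners, CCAAT, and the GC box GGGCGG. The ETS motif was present in 29 of 66 member promoters (43.9%), in 16.8% of the promoters of all genes tested and in 12.2% of all 27305 genes in the table. For the YY1 motif the shares were 12 of 66 (18.2%), 2.32% and 1.46%. The last 3 letters of the ETS motif are the first 3 of the YY1 motif, so matches to both can overlap, and 4 members held both. The ETS motif was in 12 of 30 promoters of members called lower and in 17 of 36 of the remaining ones, and the YY1 motif in 6 of each. The E-box was in 9 member promoters (13.6%, against 10.9% of genes tested), 4 of them of members called lower. CCAAT was in 34.8% and the GC box in 59.1% of member promoters, against 42.2% and 65.9% of genes tested. Of the cytosolic ribosomal protein genes, whose products build the ribosome of the cytosol, 52 had promoters in the table, 36.5% of them with the ETS motif and 1.92% with the YY1 motif. A match is a description of letters in this window and shows no binding.

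**Figure D1:**
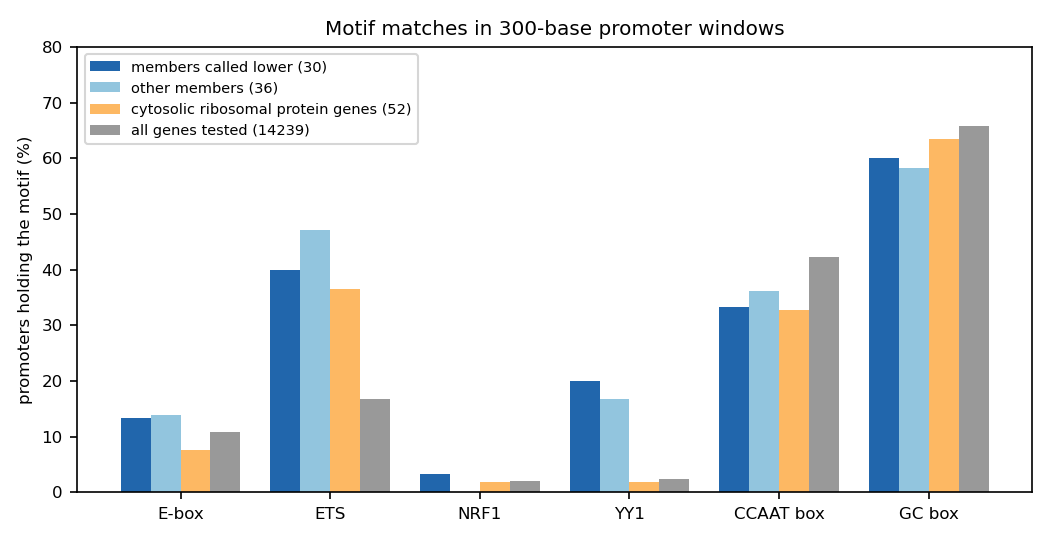
Bars give the share of promoter windows of 300 bases that hold each motif on either strand, in percent, for 30 members called lower, 36 other members, 52 cytosolic ribosomal protein genes and 14239 genes tested. The ETS and YY1 bars of both member groups stand above those of all genes tested (16.8% and 2.32%).

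The stretches around the starts of the 3 members with the largest falls, of the 2 with the largest rises and of MRPL46, a member that shares its promoter region with another member, are shown because they let the motif matches be set beside the changes. Each runs from 150 bases before to 30 bases after the start, 5′ to 3′ on the strand of the gene, and capitals mark the ETS, YY1, NRF1 or E-box match. Where RefSeq gives several starts (MRPL18 has 3 and MRPS33 has 2), the one with most matches was taken.
MRPL17: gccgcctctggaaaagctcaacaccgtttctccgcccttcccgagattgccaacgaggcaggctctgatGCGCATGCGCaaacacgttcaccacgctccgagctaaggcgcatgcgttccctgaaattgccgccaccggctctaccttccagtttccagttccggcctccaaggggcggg
MRPL18: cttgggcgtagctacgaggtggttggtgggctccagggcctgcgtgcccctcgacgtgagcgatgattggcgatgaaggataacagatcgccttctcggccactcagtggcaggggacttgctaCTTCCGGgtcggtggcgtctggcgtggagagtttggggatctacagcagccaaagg
MRPL3: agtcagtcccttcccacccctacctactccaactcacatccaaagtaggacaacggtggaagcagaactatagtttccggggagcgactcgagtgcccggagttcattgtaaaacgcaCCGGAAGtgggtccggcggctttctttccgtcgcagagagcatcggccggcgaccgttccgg
MRPL46: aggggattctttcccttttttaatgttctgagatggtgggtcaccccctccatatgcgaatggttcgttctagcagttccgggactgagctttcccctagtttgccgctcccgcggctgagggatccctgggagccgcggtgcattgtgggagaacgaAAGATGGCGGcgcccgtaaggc
MRPL16: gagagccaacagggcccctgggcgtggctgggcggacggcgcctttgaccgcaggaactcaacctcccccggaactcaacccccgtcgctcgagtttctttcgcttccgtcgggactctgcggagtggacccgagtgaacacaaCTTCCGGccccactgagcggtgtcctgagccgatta
MRPS33: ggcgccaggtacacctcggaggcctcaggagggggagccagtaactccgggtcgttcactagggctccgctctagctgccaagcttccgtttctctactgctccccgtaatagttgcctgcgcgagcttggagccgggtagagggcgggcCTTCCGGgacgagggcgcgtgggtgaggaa

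These stretches lie at chr11:6683311-6683490 (minus strand, MRPL17), chr6:159790317-159790496 (plus, MRPL18), chr3:131502942-131503121 (minus, MRPL3), chr15:88467359-88467538 (minus, MRPL46), chr11:59810749-59810928 (minus, MRPL16) and chr7:141014923-141015102 (minus, MRPS33), all on GRCh38.p14. MRPL17 was the only member with the NRF1 motif, which began 81 bases before its start. MRPL3 and MRPL18 had the ETS motif 32 and 26 bases before the start, the latter on the opposite strand. In MRPL16 and MRPS33, which rose, an ETS motif on the opposite strand lay across or just after the start. The YY1 motif of MRPL46 lay after the start. The ETS motif thus stood near the starts of both falling and rising members.

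The largest falls were in the large subunit. MRPL17, the counterpart of bacterial ribosomal protein L17, stood at 11.75, 11.77 and 11.83 on the vehicle arrays and at 10.92, 10.88 and 11.00 on the vemurafenib arrays. Its change was -0.85 (SE 0.07, 1.80-fold lower, adjusted p 1.97e-06), from 11.78 ± 0.04 to 10.93 ± 0.06 (SD, n = 3), and the groups were apart by far more than their spread. MRPL18, the counterpart of bacterial L18, read 11.03, 10.80 and 11.08 with vehicle and 10.14, 10.13 and 10.40 with vemurafenib. Vehicle replicate 2 and vemurafenib replicate 3 were the nearest arrays of the groups, which did not overlap, and the change was -0.75 (SE 0.10, 1.68-fold lower, adjusted p 7.99e-05). MRPL3, whose bacterial counterpart sits close to the peptidyl transferase centre where the peptide bond is made, read 11.93, 11.68 and 11.77 with vehicle and 11.10, 11.08 and 11.12 with vemurafenib. Its vemurafenib arrays agreed within 0.02 (SD), and the change was -0.69 (SE 0.08, adjusted p 2.46e-05).

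MRPL39, found only in mitochondrial ribosomes, read 11.40, 11.16 and 11.30 with vehicle and 10.59, 10.59 and 10.72 with vemurafenib. The groups did not overlap, and the change was -0.65 (SE 0.08, adjusted p 5.63e-05). MRPL47, the counterpart of bacterial L29 at the mouth of the exit tunnel, read 11.27, 11.24 and 11.49, then 10.73, 10.80 and 10.75. Here vehicle replicate 3 was the high array, and the change was -0.57 (SE 0.08, adjusted p 0.000152). MRPL50, another protein of mitochondrial ribosomes alone, read 11.59, 11.40 and 11.57, then 10.92, 10.92 and 11.06, a change of -0.55 (SE 0.08, adjusted p 0.000144) without overlap.

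In the small subunit, MRPS23 and MRPS12 fell most. MRPS23, without a bacterial counterpart, read 9.94, 9.69 and 9.99 with vehicle and 9.38, 9.21 and 9.34 with vemurafenib. The groups did not overlap, vehicle replicate 2 being the lowest of its group, and the change was -0.56 (SE 0.09, 1.48-fold lower, adjusted p 0.000362). MRPS12, the counterpart of bacterial S12 in the decoding centre where codon and anticodon pair, read 9.70, 9.52 and 9.57, then 9.06, 9.02 and 9.06. Its change was -0.55 (SE 0.07, 1.46-fold lower, adjusted p 9.03e-05), again with the groups apart.

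The rises were fewer and smaller. MRPS33, a small subunit protein, read 9.02, 8.73 and 8.95 with vehicle and 9.31, 9.25 and 9.34 with vemurafenib, a change of 0.40 (SE 0.09, 1.32-fold higher, adjusted p 0.00244). MRPL16, the counterpart of bacterial L16, read 10.52, 10.36 and 10.51, then 10.75, 10.78 and 10.85, a change of 0.33 (SE 0.07, 1.26-fold higher, adjusted p 0.00344). In both genes every vemurafenib array lay above every vehicle array. MRPL28 read 12.19, 12.30 and 12.21 with vehicle and 12.44, 12.36 and 12.53 with vemurafenib, and MRPL53 read 12.62, 12.65 and 12.59, then 12.83, 12.80 and 12.79. MRPL28 (0.21, adjusted p 0.0388), MRPL53 (0.19, adjusted p 0.0379) and the pseudogene MRPS31P5 (0.24, adjusted p 0.0212) also passed, with groups that did not overlap. These last 3 calls were not firm. Without vehicle replicate 3 the adjusted p was 0.104 for MRPL28, 0.117 for MRPL53 and 0.0960 for MRPS31P5, and without vemurafenib replicate 1 it was 0.0928, 0.119 and 0.0718, so that MRPS33 and MRPL16 were the only members still called higher in either fit. MRPL28 and MRPL53 also missed the threshold without vehicle replicate 1 (0.127 and 0.102) or vemurafenib replicate 3 (0.108 and 0.0535), and MRPL53 without vemurafenib replicate 2 (0.0717). After centring on gene medians all 3 missed it (0.108, 0.117 and 0.0573).

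**Figure D2:**
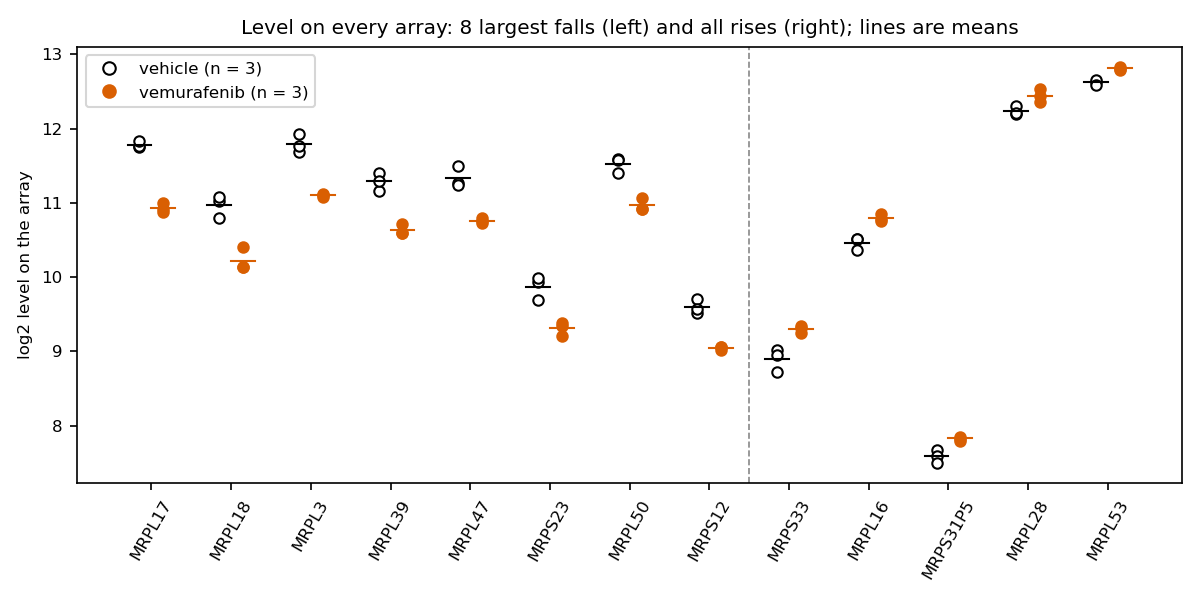
Points give the log2 level of 13 members on each of the 3 vehicle arrays (open) and 3 vemurafenib arrays (filled), and horizontal lines give group means. The 8 largest falls stand left of the dashed line and the 5 members called higher stand right of it; in none of the 13 do the groups overlap.

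The large subunit had 21 of 48 genes lower and 3 higher, and the small subunit 11 of 26 lower and 2 higher. The median change was -0.18 in the large and -0.16 in the small subunit, a difference of -0.01 that changed sign (0.02) without vemurafenib replicate 2 and was -0.06 without vehicle replicate 2. It was 0.01 with the pseudogene left out. The median deviation from the vehicle mean on the single arrays was 0.05, -0.06 and 0.0 for large subunit genes with vehicle and -0.17, -0.24 and -0.14 with vemurafenib. For small subunit genes it was 0.06, -0.05 and 0.0, then -0.15, -0.21 and -0.17. Both subunits thus had the same order of vehicle arrays, which all genes tested shared (0.01, -0.01 and 0.0). In both subunits every vemurafenib array lay below every vehicle array. All genes tested stood at -0.04, -0.06 and -0.01 with vemurafenib. The symbols do not settle the subunit in each case: MRPS18A and MRPS30 are named for the small subunit and sit in the large one. With both counted there, 22 of 50 large subunit genes were lower and 3 higher, against 10 of 23 lower and 1 higher in the small subunit without the pseudogene, and the medians were -0.18 and -0.19, a difference of 0.01.

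**Figure D3:**
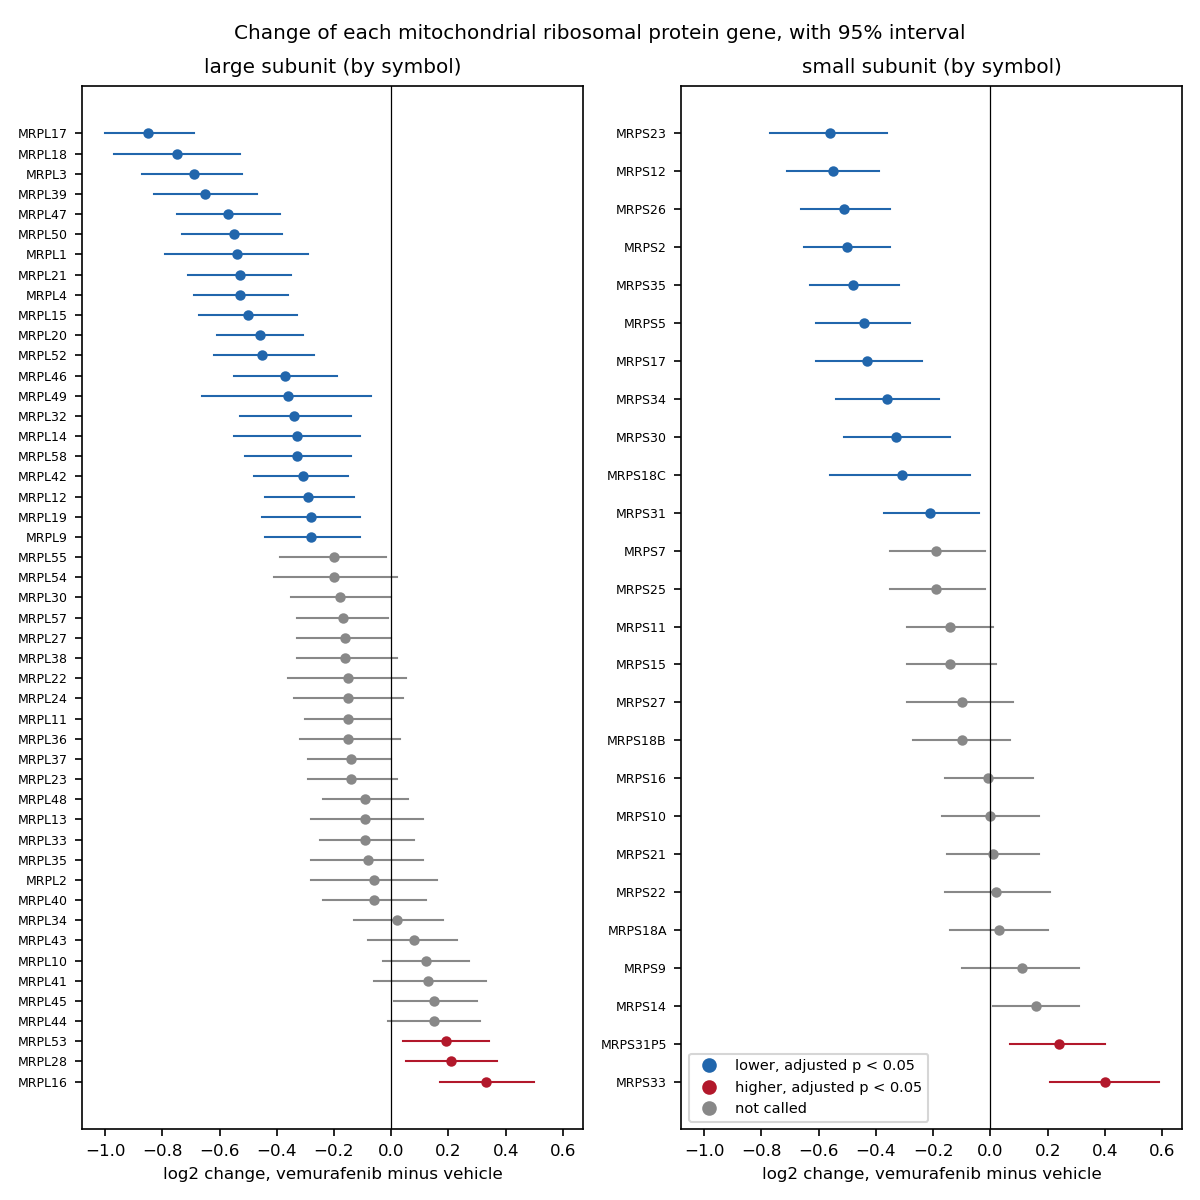
Points give the log2 change of each of the 74 members, vemurafenib minus vehicle, with the 95% interval from limma, for 48 large and 26 small subunit genes in order of change. In both panels the changes run from clearly negative values (lowest -0.85 and -0.56) through many that span 0 to a few positive ones (highest 0.33 and 0.40).

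Proteins were classed by the systematic ribosomal protein names, under which MRPS18A and MRPS18B count as mitochondrial. Of all genes tested, 22.2% were lower and 23.2% higher. Among large subunit proteins with a bacterial counterpart, 14 of 29 genes fell and 2 rose (48.3% and 6.9%), with a median change of -0.18. Besides MRPL17, MRPL18, MRPL3 and MRPL47, these were MRPL1 (-0.54), whose bacterial counterpart forms the stalk on the side where the emptied transfer RNA leaves, MRPL21 (-0.53), MRPL4 (-0.53), a counterpart of the L4 protein that lines the exit tunnel, MRPL15 (-0.50), MRPL20 (-0.46), MRPL32 (-0.34), MRPL14 (-0.33), MRPL12 (-0.29), MRPL19 (-0.28) and MRPL9 (-0.28). MRPL12 belongs to the stalk that draws translation factors to the ribosome, with 10.46 ± 0.01 in vehicle and 10.17 ± 0.07 with vemurafenib (SD, n = 3; adjusted p 0.00567). Its stalk partner MRPL10 was at 0.12 (adjusted p 0.166) and MRPL11, at the stalk base, at -0.15 (adjusted p 0.0996). The tunnel exit proteins MRPL22, MRPL23 and MRPL24 were at -0.15, -0.14 and -0.15 and did not pass (adjusted p 0.208, 0.133 and 0.182). Neither did MRPL2 (-0.06), MRPL13 (-0.09), MRPL27 (-0.16), MRPL30 (-0.18), MRPL33 (-0.09), MRPL34 (0.02), MRPL35 (-0.08) and MRPL36 (-0.15), whose adjusted p ranged upward from 0.0877.

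MRPL14 read 10.03, 9.80 and 9.87 with vehicle and 9.45, 9.49 and 9.77 with vemurafenib, and MRPL19 read 10.10, 9.90 and 10.10, then 9.77, 9.80 and 9.70. In both the groups were apart, by little between the nearest arrays. MRPL14 (adjusted p 0.0174) missed the threshold without vehicle replicate 1 (0.0759), vemurafenib replicate 1 (0.0741) or vemurafenib replicate 2 (0.0623), and MRPL19 (0.0130) without vehicle replicate 1 (0.0592) or vehicle replicate 3 (0.0552). MRPL36 was represented by the brighter of its probe sets. The other one gave a change of -0.39 (SE 0.08) from 11.13 ± 0.12 to 10.74 ± 0.02 (SD, n = 3) and had an adjusted p of 0.00770 when every probe set was tested, so the probe sets of this gene disagree. MRPL20 and MRPS18B had 2 and 3 probe sets that gave the same values on each array.

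Among large subunit proteins without a bacterial counterpart, 8 of 20 genes fell and 1 rose (40% and 5%), with a median change of -0.17. The falls after MRPL39 and MRPL50 were those of MRPL52 (-0.45), MRPL46 (-0.37), MRPL49 (-0.36), MRPL58 (-0.33), which resembles release factors and frees stalled peptide chains, MRPS30 (-0.33) and MRPL42 (-0.31). MRPL49 rested on few arrays: it read 11.22, 11.16 and 11.24 with vehicle and 11.06, 11.00 and 10.47 with vemurafenib. Without vemurafenib replicate 3, the low array, its change was -0.18 (adjusted p 0.0828, against 0.0418 with all arrays), and it also missed the threshold without vehicle replicate 1 (0.0846), 2 (0.0780) or 3 (0.0887). MRPL45, which anchors the ribosome at the inner membrane, was at 0.15 (95% interval 0.01 to 0.30, adjusted p 0.0815), with 12.75 ± 0.02 against 12.90 ± 0.01 (SD, n = 3) and no overlap. MRPL44, which has an RNase III fold, was at 0.15 (adjusted p 0.108), MRPL41 at 0.13 and MRPL43 at 0.08. The others of this class lay between -0.20 (MRPL54) and 0.03 (MRPS18A) and did not pass: MRPL57 (-0.17), MRPL38 (-0.16), MRPL37 (-0.14), MRPL48 (-0.09) and MRPL40 (-0.06). MRPL55, not put in either class here, was at -0.20 (adjusted p 0.0732).

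Small subunit proteins with a bacterial counterpart had 5 of 13 genes lower and 0 higher (38.5% and 0%), with a median of -0.14. MRPS2 went from 11.41 ± 0.03 to 10.91 ± 0.03 (SD, n = 3; change -0.50, adjusted p 9.02e-05), MRPS5 changed by -0.44, MRPS17 by -0.43 and MRPS18C by -0.31. MRPS18C read 8.08, 7.75 and 8.17 with vehicle and 7.58, 7.63 and 7.84 with vemurafenib, the only called member with overlapping groups. Its adjusted p of 0.0389 rose to 0.115 without vehicle replicate 1, 0.142 without vehicle replicate 3, 0.126 without vemurafenib replicate 1 and 0.105 without vemurafenib replicate 2. MRPS10, MRPS16 and MRPS21 had changes of 0.0, -0.01 and 0.01, each with a 95% interval within -0.17 to 0.17, so larger changes lie outside these intervals. MRPS7 (-0.19), MRPS11 (-0.14), MRPS15 (-0.14), MRPS9 (0.11) and MRPS14 (0.16) did not pass.

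Small subunit proteins found only in mitochondria had 5 of 10 genes lower and 1 higher (50% and 10%), with a median of -0.20. After MRPS23 came MRPS26 (10.57 ± 0.05 to 10.06 ± 0.05, SD, n = 3; change -0.51), MRPS35 (-0.48), MRPS34 (-0.36) and MRPS31 (-0.21, adjusted p 0.0436), and the riser was MRPS33. MRPS31 read 8.94, 8.83 and 9.04, then 8.72, 8.73 and 8.74, without overlap. Its call was lost without vehicle replicate 1 (adjusted p 0.110) or 3 (0.170) or without vemurafenib replicate 1 (0.112), 2 (0.0893) or 3 (0.0645). The pseudogene MRPS31P5, named after MRPS31, moved the other way, from 7.68, 7.59 and 7.50 to 7.85, 7.82 and 7.80. The MRPS18 paralogues, which occupy different places in the ribosome, read -0.31 (MRPS18C), -0.10 (MRPS18B) and 0.03 (MRPS18A), and MRPS22, MRPS25 and MRPS27 were at 0.02, -0.19 and -0.10 and did not pass.

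Processed copies of these genes are common in the genome, and array probes cannot always tell a gene from its copy. The RefSeq gene table names 94 pseudogenes after 38 of the members. Of these 38, 15 were lower and 2 higher, and of the 36 without a named pseudogene 17 were lower and 3 higher. The median changes were -0.16 and -0.20.

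Several members are transcribed head to head with another gene, with the starts at most 1000 bases apart. Such a neighbour was in the promoter table for 24 members and was itself measured for 19. MRPL46 and MRPS11, 1 large and 1 small subunit gene 320 bases apart, are each other's neighbour; MRPL46 changed by -0.37 (adjusted p 0.00312) and MRPS11 by -0.14 (adjusted p 0.120). Of the 17 neighbours that are no members, 4 were lower, 4 higher and 9 not called. These counts were near the shares over all genes tested (22.2% lower and 23.2% higher). For the 8 of the 17 pairs whose member fell, the neighbour fell in 1, rose in 3 and did not pass in 4. The pair that fell together was MRPL18 and TCP1, a subunit of the cytosolic chaperonin (-0.59), whose starts lie 210 bases apart. Opposite calls were seen for MRPS2 (-0.50) and PIERCE1 (0.70), 96 bases apart, for MRPL14 (-0.33) and TMEM63B (0.72), and for MRPL50 (-0.55) and ZNF189 (0.30). The neighbours that fell most stood beside members that did not pass: SKA3, a mitotic spindle gene, at -1.61 beside MRPL57 (-0.17), and EME1, a DNA repair nuclease subunit, at -1.27 beside MRPL27 (-0.16). MRPS12 (-0.55) faced SARS2 (-0.01, adjusted p 0.907), the mitochondrial seryl-tRNA synthetase, a gene of the same process.

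**Figure D4:**
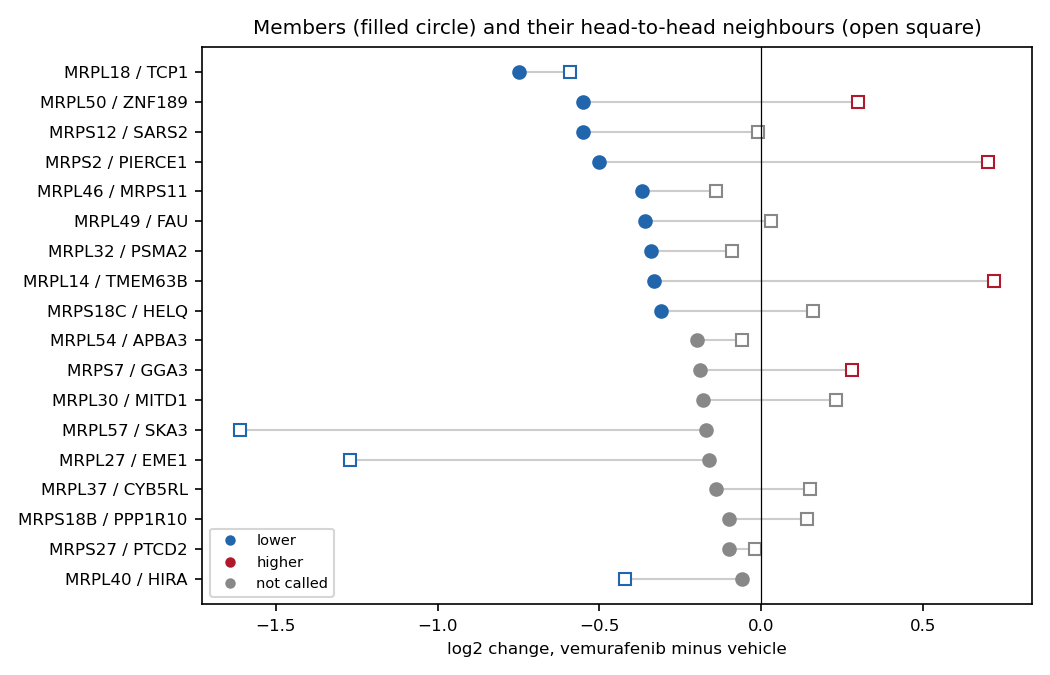
Filled circles give the log2 change, vemurafenib minus vehicle, of 18 members and open squares that of the head-to-head neighbour, joined by a line and coloured by call. The squares spread from -1.61 to 0.72 while the circles stay between -0.75 and -0.06.

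Other genes of mitochondrial translation were followed through lists. For comparison, 22.2% of all genes tested were lower and 23.2% higher, with a median of -0.05. After centring on gene medians these values were 30.6%, 20% and -0.11. Of 4 measured mitoribosome proteins with other symbols 1 was lower and 0 higher: DAP3, a GTP-binding protein of the small subunit, at -0.19 (adjusted p 0.0402). After centring on gene medians 3 of the 4 were lower, with a median of -0.25. PTCD3 (-0.19, adjusted p 0.0533), GADD45GIP1 (-0.19) and CHCHD1 (-0.05) did not pass. The DAP3 call was lost when vehicle replicate 1, 2 or 3 or vemurafenib replicate 1 or 2 was left out (adjusted p 0.135, 0.0611, 0.0647, 0.127 and 0.0840).

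Of 27 mitoribosome assembly factors, 10 fell and 1 rose (37% and 3.7%), with a median of -0.12. TFB1M, which methylates the small subunit RNA, fell 2.34-fold (-1.23, SE 0.08, adjusted p 2.53e-07), more than any member. FASTKD2, an RNA-binding protein, changed by -0.69 and MRM2, a methyltransferase of the large subunit RNA, by -0.61. METTL15, another methyltransferase, rose by 0.28 (adjusted p 0.0140), which missed the threshold without vehicle replicate 1 (0.0562) or vemurafenib replicate 2 (0.0576), with the mean of its probe sets (0.0779) and after centring on gene medians (0.0512). With that centring 13 assembly factors were lower and 0 higher, with a median of -0.18.

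Of 15 translation factors and helpers, 3 fell and 1 rose (20% and 6.67%), with a median of -0.08 and a lowest change of -0.26. The share that fell was near the 22.2% of all genes tested. After centring on gene medians 6 were lower and 1 higher, with a median of -0.14. Those called without this centring were TSFM, which recharges the elongation factor TUFM (-0.26), and GFM1, elongation factor G (-0.24). MTRF1L, a release factor (-0.23), was also lower and the initiation factor MTIF3 (0.39) higher. GFM1 and MTRF1L missed the threshold without vehicle replicate 1 (adjusted p 0.132 and 0.0836), vehicle replicate 3 (0.103 and 0.0745), vemurafenib replicate 1 (0.108 and 0.0665) or vemurafenib replicate 3 (0.0777 and 0.0520). TUFM itself stood at -0.05 (adjusted p 0.614).

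Of 19 genes that take part in charging mitochondrial transfer RNAs, 7 fell and 2 rose (36.8% and 10.5%). Their median was -0.05, that of all genes. After centring on gene medians 8 were lower and 1 higher, with a median of -0.11, again that of all genes. The largest falls were those of MARS2 (-0.75), NARS2 (-0.53) and EARS2 (-0.46), which charge methionine, asparagine and glutamate, and the rises those of HARS2 (0.32) and PARS2 (0.20, adjusted p 0.0431). PARS2 missed the threshold without vehicle replicate 1 (0.0704), 2 (0.0738) or 3 (0.125), without vemurafenib replicate 1 (0.0817) or 3 (0.126), and after centring on gene medians (0.107). Of 11 genes of mitochondrial transcription and RNA processing, 7 fell and 1 rose (63.6% and 9.09%), with a median of -0.35. After centring on gene medians 7 were lower and 0 higher, with a median of -0.41. PNPT1, an RNA-degrading enzyme, fell 2.0-fold, TFB2M, which opens promoters for the mitochondrial RNA polymerase, changed by -0.75 and TFAM, which packs mitochondrial DNA, by -0.74. The riser TEFM, the elongation factor of that polymerase, was at 0.24 (adjusted p 0.0327). It missed the threshold without vehicle replicate 2 (0.0982) or 3 (0.0515), without vemurafenib replicate 1 (0.0688) or 2 (0.121), and after centring on gene medians (0.0916).

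The cytosolic ribosome is the closest comparison. Of its 63 measured protein genes, paralogues included, 18 were higher and 4 lower, with a median of 0.12. Their shares were 28.6% and 6.35%, against 23.2% and 22.2% of all genes tested. The counts depended on the scaling. With arrays centred on the medians of their probe sets 13 were higher and 4 lower, with a median of 0.12. After centring on gene medians, the step chosen after seeing the data, 7 were higher and 6 lower. With that centring their median was 0.06, while the median of all genes tested moved from -0.05 to -0.11. Many of these genes, such as RPL8 (13.98 with vehicle), read above 12.82, the highest mean level of a member. How level and gene copies bear on the comparison was not tested. RPS24 (-0.33, adjusted p 0.0342), named after its value was seen, had overlapping groups and missed the threshold without vehicle replicate 1 (0.100) or 2 (0.0978) or vemurafenib replicate 1 (0.0852) or 2 (0.136). The other lower genes were the paralogues RPL22L1 (-1.16), RPL7L1 (-0.53) and RPL39L (-0.48), while RPS27L (0.46), RPL10A (0.44) and RPL28 (0.33) rose most. By array, on the deposited scale, the median deviation from the vehicle mean was 0.04, -0.01 and -0.02 with vehicle and 0.11, 0.10 and 0.13 with vemurafenib, above every vehicle array, where both mitochondrial subunits lay below. The difference between the ribosomes was not tested as a set.

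**Figure D5:**
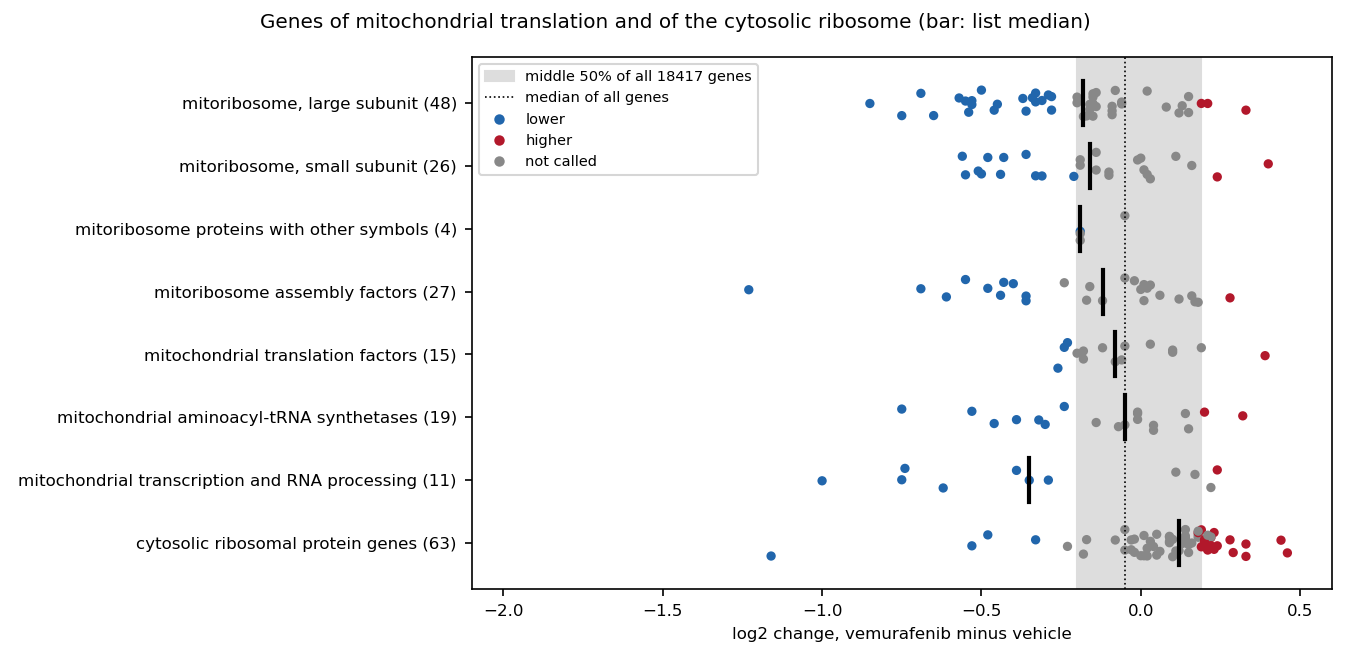
Points give the log2 change, vemurafenib minus vehicle, of each gene in 8 lists with the number measured in brackets, coloured by call; thick bars are list medians, the grey band holds the middle 50% of all 18417 genes (-0.20 to 0.19) and the dotted line is their median (-0.05). The medians of both mitoribosome subunits (-0.18 and -0.16) lie left of the dotted line and that of the cytosolic ribosome (0.12) right of it. After centring on gene medians, not drawn here, the cytosolic median was 0.06 and that of all genes -0.11.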

How the data were processed

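RNA of 6 A375 arrays (3 vehicle, 3 vemurafenib) was labelled from 250 ng, per the labels. The authors deposited log2 levels for 33297 probe sets; per the submitters' processing notes, they used RMA and Partek (no versions stated). RMA in its common form gives all arrays 1 distribution, so these levels cannot show whether a cell's total RNA changed. For its settings, any batch correction and the build, nothing is given in the sources used here. The platform annotation of 2016 gave 19460 probe sets 1 symbol, 1754 several and 12083 none. The probe set with the highest mean was kept per gene, with no filter on dim genes. limma 3.58.1 (R 4.3.3, statmod 1.5.0) compared the groups, 2-sided, by lmFit and eBayes, with Benjamini-Hochberg adjustment over 18417 genes and a threshold of 0.05; scripts were tested on simulated data. Values on every array are given for the 8 largest falls and up to 8 largest rises past the threshold, and for members whose call turns on single arrays. From each related list up to 3 falls and 3 rises are named, and RPS24 was added after its value was seen. Members that did not pass are named with their changes. The members and lists were chosen with earlier results of these data known. Alternatives were a replicate block, fixed or random, centring, a filter on dim genes, the mean of probe sets, an intensity trend, a stricter threshold, other subunit assignments and omission of each array; centring on gene medians was chosen after seeing the data. Figures used Python 3.11.15 and matplotlib 3.10.9.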

Additional observations from a re-analysis of the deposited data

How the results depend on the processing

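Of the 37 called members, 29 (27 lower, 2 higher) kept direction and threshold in each of the 14 alternatives run, 8 lost the call in at least 1 and 0 reversed. The count of lower members stayed within 1.5 times in all alternatives, at 27 to 34 when 1 array was left out (large subunit 18 to 23, small subunit 9 to 11). With an intensity trend and robust eBayes 7 members were higher (large subunit 4, small subunit 3) and 39 lower (large 24, small 15). The count of higher members fell from 5 to 3 with the replicate block, fixed or random (large subunit 1 each). It fell to 2 at a threshold of 0.01 and to 2 after centring on gene medians (1 in each subunit both times). That centring moved the subunit medians to -0.24 and -0.22 and the median of all genes from -0.05 to -0.11. Without the pseudogene 1 small subunit gene was higher. Leaving out 1 array gave 2 to 5 higher members (large 1 to 3, small 1 to 2), subunit medians of -0.22 to -0.14 (large) and -0.16 to -0.15 (small), and a difference of medians of -0.06 to 0.02, reversed at 0.02. The cause of these shifts was not tested. The stated partners could not be assigned: same-numbered arrays did not all deviate together (correlations over genes 0.14, -0.18 and -0.25), while vehicle replicate 2 with vemurafenib replicate 3 gave 0.28 and vehicle replicate 3 with vemurafenib replicate 2 gave 0.22. Numbers were not taken as pairs in the main fit, and no pairing was chosen from these values. Both replicate blocks do treat equal numbers as partners, and the random one had a consensus correlation of -0.12. Calls lost under these blocks therefore cannot speak for the stated pairs. The fixed replicate block called 3989 genes higher and 3617 lower, against 4281 and 4090 without it, and 31 members lower. With the fixed block MRPS31 (adjusted p 0.0713), MRPL28 (0.0783) and MRPL53 (0.0785) missed the threshold, as did DAP3 (0.0847), GFM1 (0.0721), MTRF1L (0.0516), PARS2 (0.0812), TEFM (0.0711) and RPS24 (0.0621); with the random block MRPL49 (0.0536), MRPS18C (0.0554), MRPS31 (0.0584), MRPL53 (0.0511), MRPL28 (0.0502), DAP3 (0.0532) and PARS2 (0.0560) did.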

Other observations

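Probe sets that name a mitochondrial ribosomal protein gene together with another gene were outside the module, since the signal cannot be given to either. The probe set of MRPL51 and SPTLC1 stood at 13.17 ± 0.04 in vehicle and 13.17 ± 0.06 with vemurafenib (SD, n = 3), that of MRPS6 and SLC5A3 at 10.95 ± 0.06 and 11.11 ± 0.03, that of MRPS24 and the readthrough URGCP-MRPS24 at 12.07 ± 0.01 and 12.08 ± 0.06, and that of MRPS28 and TPD52 at 8.33 ± 0.24 and 8.15 ± 0.13. The limma adjusted p over all probe sets ran from 0.103 for MRPS6 and SLC5A3 to 0.993 for MRPL51 and SPTLC1.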
